A study of Mus musculus with 10 samples.

Results

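Brain microvascular endothelial cells (BMEC) line the small vessels of the brain. The cells described here are all those that the authors' deposited annotation calls BMEC, which is the whole of cluster 8 of their clustering. They were 875 of 68914 annotated cells (1.27%) and the ninth most numerous of 16 cell classes. Endothelial cells of brain capillaries are joined by tight junctions and carry transporters, and together with pericytes and astrocyte endfeet they form the blood-brain barrier. When activated, endothelium can present adhesion molecules that let leukocytes leave the blood. Neurofilament light chain (NfL) is a subunit of the intermediate filaments of axons, and it is found outside neurons after axonal damage.

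The study asked how NfL supplied from outside acts on the cells of the brain. All mice were wild-type C57BL/6 males of 11 weeks, and each hippocampus of each mouse was injected. The vehicle group had 4 mice. The FL-NfL group had 3 mice given full-length NfL at 1 mg/ml, and the CC-NfL group had 3 mice given coiled-coil NfL at 1 mg/ml. Hippocampi were taken after 3 days from mice perfused with buffer, dissociated enzymatically with actinomycin D, an inhibitor of transcription, added, and sorted for live cells by calcein and propidium iodide. No group received an unrelated protein, and no uninjected mice are among the samples. Each mouse gave 1 droplet library, and the labels place 6 libraries in batch b1 and 4 in batch b2, with every group in both.

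The data analysed hold a library, a cluster, a class and a position on a 2-dimensional t-SNE map for each cell. They hold no gene values, so the class was not checked here against Cldn5 (a tight junction protein), Flt1 (a VEGF receptor) or Pecam1 (an endothelial adhesion molecule), and levels of RNA in BMEC were not analysed here. What can be described is how many BMEC each library held, in what company, and where they lay on the map. A share can move because BMEC were fewer or because other classes were more numerous, and survival of dissociation and the live sort acts on it too. These cannot be told apart here.

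Libraries held 3150 to 14141 annotated cells, and 17.3% to 71.3% of the barcodes of a library carried no class. Batch b2 libraries were the larger ones. The group and batch written beside each cell matched the labels in 68914 of 68914 annotated cells. Libraries numbered 1 stood apart by their neural progenitor-like cells (NPC), at 13.5% to 20.5% against 1.82% to 5.88% elsewhere. Of the 875 BMEC, 19 (2.17%) had a barcode that also occurred in another library, against 2.57% of all annotated cells, and no barcode was shared between BMEC of different libraries.

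The share of BMEC was similar in the vehicle and FL-NfL groups, and it was smaller in each CC-NfL library than in any library of the other groups. The group means were 1.55% ± 0.156 (SD, n = 4) for vehicle, 1.60% ± 0.378 (n = 3) for FL-NfL and 0.803% ± 0.377 (n = 3) for CC-NfL. The CC-NfL mean was thus 0.519 times the vehicle mean. The CC-NfL difference did not pass the test across all classes.

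The vehicle libraries, numbered 1 to 4, held 61, 52, 166 and 117 BMEC. These were 1.57% (95% Clopper-Pearson interval 1.21 to 2.02), 1.58% (1.18 to 2.07), 1.70% (1.45 to 1.98) and 1.33% (1.10 to 1.59) of their annotated cells. All 4 intervals overlapped, and the intervals cover counting error only. The FL-NfL libraries held 86, 43 and 159 BMEC, or 2.04% (1.63 to 2.51), 1.37% (0.990 to 1.83) and 1.40% (1.20 to 1.64). FL-NfL 1 was above every vehicle library, and the other FL-NfL libraries lay within the vehicle range. The CC-NfL libraries held 22, 74 and 95 BMEC, or 0.509% (0.319 to 0.769), 1.23% (0.966 to 1.54) and 0.672% (0.544 to 0.821). CC-NfL 2 lay close under the lowest vehicle library, with overlapping intervals, while CC-NfL 1 and CC-NfL 3 lay far below it.

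**Figure D1:**
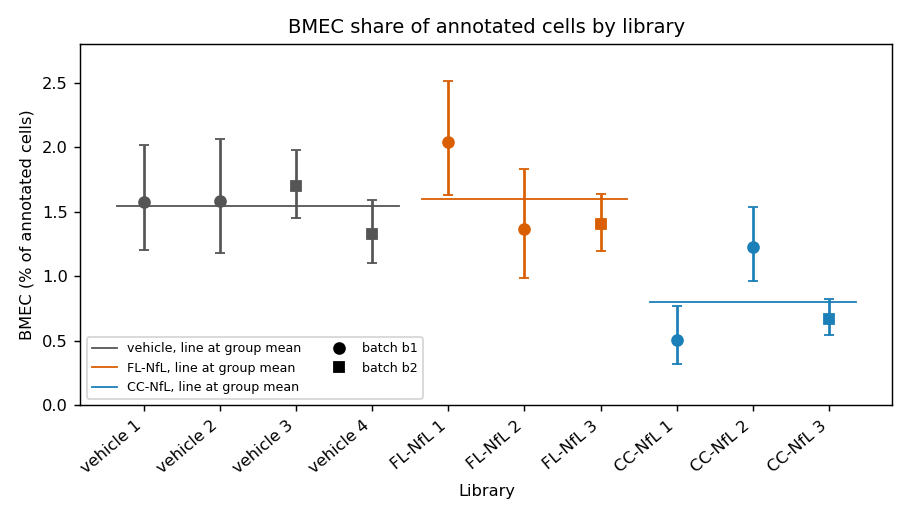
BMEC as a percentage of annotated cells (y axis) in each of the 10 libraries (x axis), with 95% Clopper-Pearson intervals as bars, circles for batch b1, squares for batch b2 and a horizontal line at each group mean. The CC-NfL libraries, at 0.509% to 1.23%, all lie below the lowest vehicle library at 1.33%.

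The comparison of CC-NfL with vehicle asked whether the coiled-coil protein changed the share of BMEC. In a limma fit of the log2 odds of all 16 classes with group and batch as terms, the BMEC estimate was -1.07 (SE 0.38, 95% interval -1.95 to -0.20), an odds ratio of 0.475 (0.259 to 0.870). Its p was 0.174 after Benjamini-Hochberg adjustment over the 16 classes. In this comparison 0 of 16 classes (0%) passed in limma, with 3 below 0.05 before adjustment, and a quasi-binomial model of the counts also passed 0. Under that model BMEC stood at -1.03 with an adjusted p of 0.0516, against a threshold of 0.05, and macrophages and other immune cells had the same adjusted p. BMEC was the only class of 16 (6.25%) whose CC-NfL libraries all lay below all vehicle libraries. The exact two-sided permutation p for the percentage was 0.0286, the smallest that 3 against 4 libraries allow, and 0.229 when adjusted over the 16 classes. With libraries exchanged only within their batch it was 0.0556, again the smallest possible.

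The lower BMEC share after CC-NfL was seen in both batches. In b1 the mean was 0.868% over 2 CC-NfL libraries against 1.58% over 2 vehicle libraries, and in b2 it was 0.672% in 1 CC-NfL library against 1.52% over 2. The share did not differ between batches beyond its spread (1.38% in b1, 1.28% in b2, exact permutation p = 0.752). Without the libraries numbered 1, the estimate was -0.81 (adjusted p = 0.420).

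FL-NfL and vehicle did not differ in BMEC share beyond their spread. The limma estimate was 0.0036 (SE 0.38, 95% interval -0.87 to 0.88, adjusted p = 0.993), an odds ratio of 1.00 with an interval of 0.547 to 1.84. limma called 2 of the 16 classes (12.5%) in this comparison, macrophages and other immune cells, both higher. The exact permutation p for BMEC was 0.83. In b1 the means were 1.70% after FL-NfL and 1.58% after vehicle, and in b2 the FL-NfL library held 1.40% against 1.52%.

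Set directly against each other, the 3 FL-NfL libraries held larger BMEC shares than the 3 CC-NfL libraries, without overlap, and the mean was 2.00 times as high. For 3 of 16 classes (18.8%) every FL-NfL library lay above every CC-NfL library. The limma estimate for BMEC was 1.08 (SE 0.40, 95% interval 0.15 to 2.00, adjusted p = 0.378). Here limma passed 0 of 16 classes (0%). BMEC was the 1 class below 0.05 before adjustment, and the quasi-binomial fit passed 0. The exact permutation p was 0.100, below which 3 against 3 libraries cannot go. Without the libraries numbered 1 the estimate fell to 0.62 (limma adjusted p = 0.945). Over both NfL groups together the BMEC estimate against vehicle was -0.54 (SE 0.32, limma adjusted p = 0.582), in a comparison where 2 of 16 classes (12.5%) were called.

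The same cells were next counted against other denominators. The permutation tests on these were added after the shares of annotated cells were known. As a share of all barcodes, with or without a class, BMEC were 0.808%, 0.786%, 1.40% and 1.07% in the vehicle libraries and 0.239%, 0.711% and 0.533% in the CC-NfL libraries. The groups did not overlap (exact permutation p = 0.0571, or 0.0556 with libraries exchanged only within their batch). This denominator differs by batch, since 42.0% to 71.3% of barcodes carried no class in b1 and 17.3% to 20.7% in b2. The higher vehicle values, 1.40% and 1.07%, were those of b2. FL-NfL 1, which had the highest share of annotated cells, had the lowest FL-NfL share of barcodes, 0.584% against 0.791% and 1.16%. Its unannotated share of 71.3% was the highest of the 10 libraries. Among cells other than microglia, macrophages and other immune cells, BMEC were 2.36% ± 0.312 (n = 4) with vehicle, 2.73% ± 0.779 (n = 3) with FL-NfL and 1.32% ± 0.708 (n = 3) with CC-NfL. CC-NfL and vehicle overlapped on this scale (exact permutation p = 0.0571). There were 4.91 ± 1.15, 5.16 ± 1.42 and 2.39 ± 0.902 BMEC per 100 microglia in the same order of groups.

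BMEC were more alike between vehicle mice than most classes were. The coefficient of variation of their share over the 4 vehicle libraries was 10.1%, the lowest of the 16 classes, and the chi-square of their counts per degree of freedom was 1.43, the second lowest, where 1 would be counting error alone. After FL-NfL these values were 23.6% (rank 5 of the 16 classes from the lowest) and 4.46 (rank 3). After CC-NfL they were 47.0% (rank 8) and 10.9 (rank 5). They depend on the number of cells and were not tested.

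BMEC belonged to 2454 vascular and stromal cells, of which they were 35.7%. The other members were 696 pericytes, which wrap capillaries, 371 VECA and 288 VSMC, read as arterial endothelial and vascular smooth muscle cells, and 224 VLMC, read as vascular leptomeningeal cells. The annotation does not spell out these abbreviations. This denominator holds no immune and no neural cells. Within it, BMEC made up 36.8% ± 6.20 in the vehicle group, 49.4% ± 22.6 in the FL-NfL group and 30.8% ± 4.59 in the CC-NfL group.

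In the vehicle libraries BMEC were 31.4%, 44.8%, 32.4% and 38.5% of vascular and stromal cells. In the FL-NfL libraries they were 75.4%, 36.4% and 36.3%, and in the CC-NfL libraries 33.3%, 33.6% and 25.5%. FL-NfL 1 stood far above all other libraries, with 86 BMEC beside 20 pericytes, 5 VECA and 3 VSMC. The CC-NfL libraries overlapped the vehicle libraries, except CC-NfL 3, which was the lowest of the 10. Every FL-NfL library lay above every CC-NfL library for BMEC, and the reverse held for pericytes, so that 2 of 5 classes (40%) did not overlap.

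**Figure D2:**
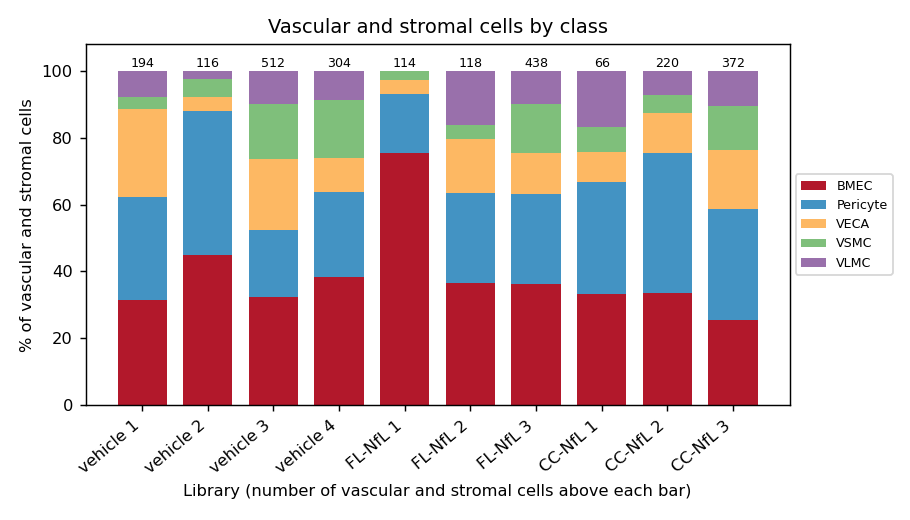
Share of each vascular or stromal class (y axis, % of vascular and stromal cells) in each library (x axis), with the number of such cells above each bar. BMEC, at the base of each bar, are 25.5% to 44.8% in 9 libraries and 75.4% in FL-NfL 1.

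None of these differences passed a test. The limma estimate for BMEC among the 5 classes was 0.69 (SE 0.59, adjusted p = 0.652) for FL-NfL against vehicle, -0.48 (SE 0.59, adjusted p = 0.737) for CC-NfL against vehicle and 1.17 (SE 0.63, adjusted p = 0.264) for FL-NfL against CC-NfL. In each comparison 0 of 5 classes (0%) passed in limma, with 0 below 0.05 before adjustment, and the quasi-binomial fit passed 0 as well. Without FL-NfL 1 the estimates were -0.016 for FL-NfL against vehicle and 0.41 for FL-NfL against CC-NfL. The excess of FL-NfL over vehicle thus rested on that library. FL-NfL 2 and FL-NfL 3, at 36.4% and 36.3%, still lay above the CC-NfL libraries, at 25.5% to 33.6%. Within b1 the BMEC means were 38.1%, 55.9% and 33.5% for vehicle, FL-NfL and CC-NfL, and in b2 they were 35.5%, 36.3% and 25.5%.

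The vascular and stromal cells other than BMEC were 2.76% of annotated cells in the vehicle group, 1.84% in the FL-NfL group and 1.80% in the CC-NfL group, with overlapping libraries (exact permutation p = 0.286 and 0.257). After CC-NfL, the limma estimates were -0.49 (SE 0.50) for pericytes, -0.69 (SE 0.87) for VECA, -0.54 (SE 0.42) for VSMC and 0.090 (SE 1.22) for VLMC, none of them called. The interval of the BMEC share within the vascular cells, -1.81 to 0.86 on the log2 odds scale for CC-NfL against vehicle, spans both a fall and a rise. These libraries therefore do not tell whether BMEC differed from their vascular neighbours.

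BMEC per pericyte, a ratio within the capillary wall, was 1.02, 1.04, 1.61 and 1.52 in the vehicle libraries. It was 4.30, 1.34 and 1.36 after FL-NfL, and 1.00, 0.804 and 0.772 after CC-NfL. All 3 CC-NfL libraries lay below all vehicle libraries, by little in the case of CC-NfL 1. The exact permutation p for this comparison, in a test added after values were seen, was 0.114 (0.229 adjusted over the contrasts). How many other ratios separated in the same way was not counted. In limma the log2 ratio changed by 0.63 (SE 0.61) for FL-NfL against vehicle, -0.57 (SE 0.61) for CC-NfL against vehicle and 1.21 (SE 0.65) for FL-NfL against CC-NfL, with adjusted p of 0.989, 0.903 and 0.866.

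The clearest contrast around BMEC was with macrophages and other immune cells. Microglia did not share it after FL-NfL, at 21.1 ± 4.46 per BMEC with vehicle, 20.6 ± 6.55 with FL-NfL and 46.1 ± 17.5 with CC-NfL. Vehicle libraries held close to 1 macrophage for each BMEC, with values of 1.02, 1.00, 0.904 and 0.786. FL-NfL libraries held 4.69, 4.02 and 5.01, and CC-NfL libraries held 3.82, 3.57 and 8.65. All 6 NfL libraries lay above all 4 vehicle libraries. The macrophage share of annotated cells separated them too, at 1.05% to 1.60% with vehicle, 5.49% to 9.55% with FL-NfL and 1.94% to 5.81% with CC-NfL. It was the 1 class of 16 (6.25%) with all NfL libraries above all vehicle libraries. How many of the ratios between other classes did the same was not counted, so the separation is not read as particular to BMEC. Other immune cells numbered 0.197, 0.269, 0.145 and 0.248 per BMEC in vehicle libraries, 0.756, 0.930 and 1.05 with FL-NfL, and 0.591, 0.824 and 1.88 after CC-NfL. This ratio did not overlap between NfL and vehicle, but the share of other immune cells among annotated cells did. CC-NfL 1, which held the fewest BMEC, had a share of 0.301%, within the vehicle range of 0.246% to 0.426%. Macrophages of the brain sit at its borders and around vessels or enter from the blood, and the annotation does not separate these sources.

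**Figure D3:**
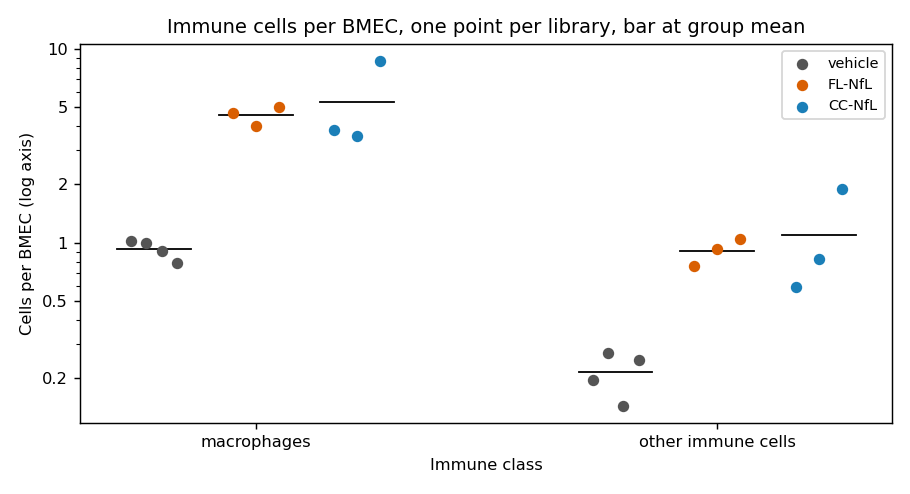
Macrophages and other immune cells per BMEC (y axis, log scale) in each library, grouped on the x axis by immune class and coloured by group, with a bar at each group mean. All NfL points, 3.57 to 8.65 for macrophages, lie above all vehicle points, 0.786 to 1.02.

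The mean was 0.927 ± 0.106 macrophages per BMEC with vehicle (n = 4), 4.57 ± 0.504 with FL-NfL (n = 3) and 5.35 ± 2.87 with CC-NfL (n = 3). Both batches showed it, with 1.01, 4.35 and 3.69 in b1 and 0.845, 5.01 and 8.65 in b2. The ratio has macrophages as its numerator, which rose in share after FL-NfL (above), and after FL-NfL the BMEC share lay at the vehicle level. After CC-NfL neither the macrophage nor the BMEC share passed its own test.

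All pairs of the 16 classes were tested in limma as log2 ratios, with p-values adjusted over the 120 pairs, and 15 pairs held BMEC. These 15 share BMEC and are not independent. With both NfL groups together against vehicle, 2 of the 15 passed, BMEC per macrophage at -2.40 (SE 0.46) and BMEC per other immune cell at -2.20 (SE 0.49), each with an adjusted p of 0.0430. Over all 120 pairs 6 (5%) passed. Before adjustment, 2 of the 15 (13.3%) and 21 of the 120 (17.5%) lay below 0.05. Both calls were lost with the replicate number as a block (-2.27 and -2.22, limma adjusted p = 0.126 for each), although the direction held. In exact permutation of the libraries the direction also held and neither passed (adjusted p = 0.0571 for each, from a raw p of 0.00476). That raw p is the smallest that 4 against 6 libraries allow, so passing depended on how many of the 120 pairs reached it. Both limma calls were also lost without vehicle 1, 3 or 4, without any single FL-NfL library, and without CC-NfL 2 or 3, where the adjusted p reached 0.188. Without vehicle 2 the macrophage ratio passed (limma adjusted p = 0.0423) and the other did not (adjusted p = 0.0526).

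For single proteins no ratio passed. For FL-NfL, BMEC per macrophage was -2.35 (SE 0.54, limma adjusted p = 0.0612) and per other immune cell -2.15 (SE 0.58, adjusted p = 0.0667). For CC-NfL they were -2.45 (SE 0.54, limma adjusted p = 0.150) and -2.26 (SE 0.58, adjusted p = 0.194). In each comparison limma passed 0 of the 120 pairs (0%). Exact permutation passed 0 of the ratios with BMEC, but it could hardly do otherwise. Between the proteins its p cannot go below 0.1. For 3 against 4 libraries its smallest p, 0.0286, passes after adjustment only if most of the 120 pairs reach it. Before adjustment in limma, 2 of the 15 ratios with BMEC (13.3%) lay below 0.05 for FL-NfL, 3 (20%) for CC-NfL and 1 (6.67%) between the proteins. Over all 120 pairs the counts at that threshold were 23 (19.2%), 12 (10%) and 1 (0.833%). The BMEC share was thus below that of all pairs for FL-NfL and above it in the other comparisons, which rest on 3 ratios and 1 ratio, and nothing particular to BMEC is read from it. Without CC-NfL 1, which enters the shared estimate of spread, 2 ratios passed for FL-NfL.

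FL-NfL and CC-NfL did not differ in these ratios beyond their spread, at 0.10 (SE 0.57, 95% interval -1.18 to 1.38) for macrophages and 0.11 (SE 0.62, -1.28 to 1.5) for other immune cells. After CC-NfL all 15 ratios had estimates below 0, the smallest in size being that to ependymal cells at -0.18 (SE 0.58). After FL-NfL the highest estimate was that to Reelin neurons at 0.90 (SE 1.64), and the lowest that to macrophages. Between the proteins, the ratio to Reelin neurons was also the highest at 2.40 (SE 1.73) and that to ependymal cells the lowest at 0.090 (SE 0.61). None of these passed.

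**Figure D4:**
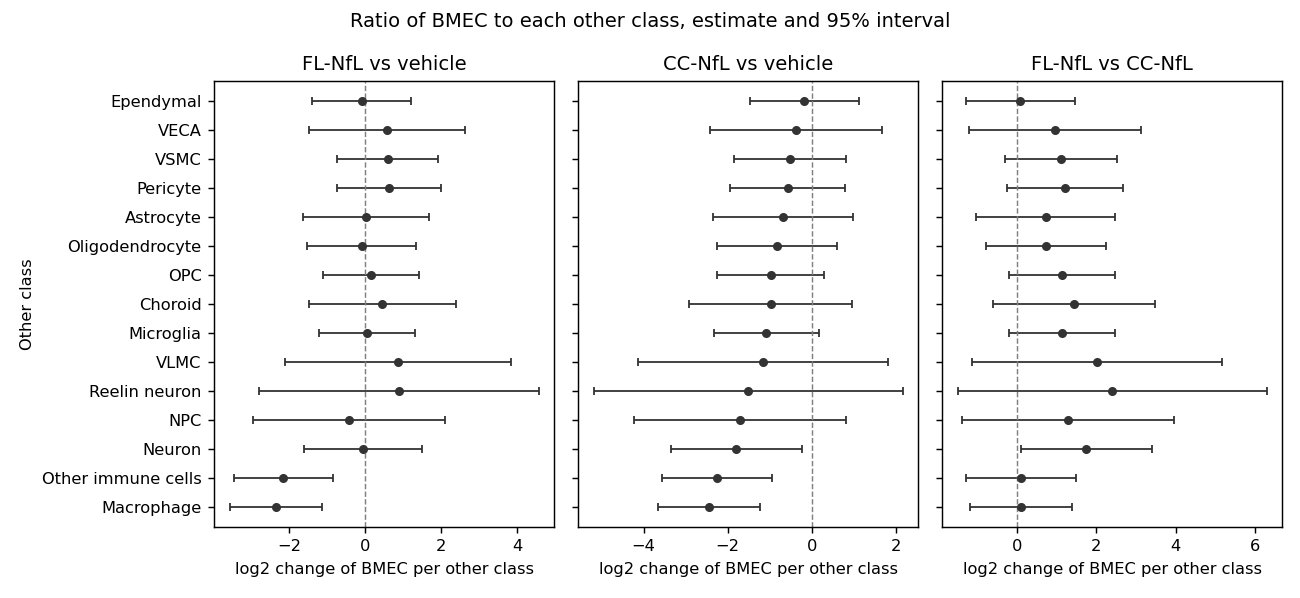
Change in the log2 ratio of BMEC to each other class (x axis) with its 95% limma interval, for FL-NfL against vehicle, CC-NfL against vehicle and FL-NfL against CC-NfL; classes on the y axis are ordered by the CC-NfL estimate. The ratios to macrophages and other immune cells lie below 0 with both proteins, at -2.35 and -2.45 for macrophages.

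Across the 10 libraries, the BMEC percentage did not follow that of any of 6 classes examined. Pearson's r was 0.24 with VECA, 0.21 with pericytes, 0.12 with VSMC, -0.12 with VLMC, 0.033 with microglia and 0.21 with macrophages. Spearman's rho was 0.12, 0.20, -0.018, 0.018, 0.0061 and -0.0061 in the same order. The permutation p adjusted over the 6 relations was 0.907 or higher for r and 1.00 for rho. Within the 6 b1 libraries r was 0.14, 0.16, -0.14, -0.33, -0.14 and 0.55. Without CC-NfL 1 and CC-NfL 3, the libraries farthest from the median BMEC share, r was -0.044, -0.50, -0.14, -0.47, -0.15 and 0.36. Percentages of 1 library share a total, so they are not free to vary.

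On the authors' t-SNE map BMEC formed 1 island with a narrow tail. For all 875 cells, the 30 nearest annotated cells of any class were BMEC, in every library, and the same held with 10 or 50 neighbours. Class and position come from the same expression values, so this describes the map and is no test of the class. In all, 8 of the 16 classes had no cell of another class among these neighbours. The class whose median position lay nearest was the ependymal class, at 9.81 map units, and VECA, the other endothelial class, lay 44.1 units away, farther than 13 of the other classes. Distances between islands of a t-SNE map do not measure differences in expression.

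**Figure D5:**
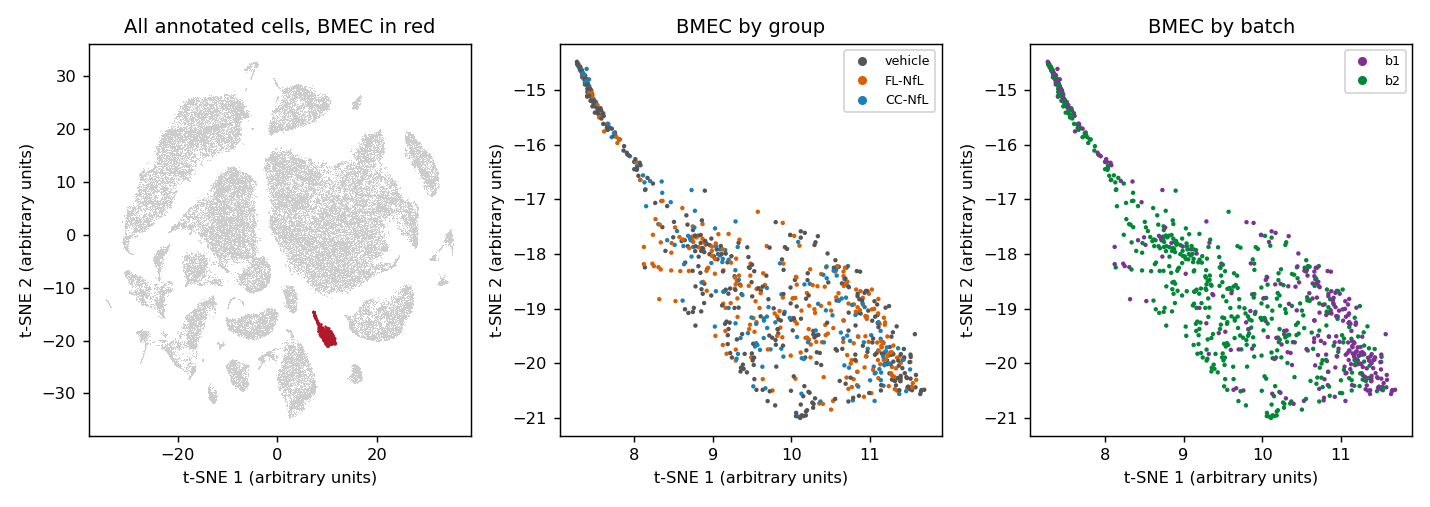
The authors' t-SNE map (both axes in arbitrary units) with BMEC in red among all annotated cells (left), and BMEC alone coloured by group (middle) and by batch (right). Groups are spread through the island, while b1 cells are more frequent at its right edge.

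Within the island, cells of the same group did not lie together more than cells of different groups. The log2 enrichment of one library among the 30 nearest BMEC of another was lower by 0.14 for pairs of libraries of the same group (-0.097) than for pairs of different groups (0.044), with an exact one-sided permutation p of 0.589 over 1080 regroupings within batch. Pairs of libraries of the same batch had a mean enrichment of 0.35, against -0.29 for different batches, a difference that was not tested. In tests added after the map was seen, the median distance of a library's BMEC from the centre of all BMEC was 2.19 ± 0.412 in b1 (n = 6) and 1.42 ± 0.376 in b2 (n = 4), with an exact permutation p of 0.0286, or 0.114 adjusted over 4 measures. The centre is weighted to b2, which gave more cells. Among 12 comparisons of position between groups the lowest adjusted p was 0.994 by exact permutation.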

How the data were processed

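The submitters' processing notes name Cell Ranger 6.0.1 and the build GRCm38. How cells were filtered, clustered, named and placed on the map, and how doublets were treated, is not given in the sources used here. As deposited by the authors, the data are a table of library, barcode, cluster and class, with map positions (a score in arbitrary units) for each of 108266 barcodes, of which 39352 carry no class and were left out except as a denominator. Libraries were counted by class (Python 3.11.15, pandas 2.3.3). Depth is the number of annotated cells in a library.

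The library was the replicate. Log2 odds with 0.5 cells added were fitted in limma 3.58.1 (R 4.3.3) over 16 classes, 5 vascular classes or 120 pairs, with group and batch, 10 libraries in each fit, two-sided, with Benjamini-Hochberg adjustment within each contrast and a threshold of 0.05. Exact permutations were two-sided unless stated. Correlations used 100000 permutations. Both proteins were compared with the same vehicle libraries. Scripts were tested on simulated data.

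BMEC were chosen, and the class lists fixed, with earlier results of these data known. Other classes were named where a ratio to BMEC passed or was an extreme, where they were nearest on the map or were a denominator. The permutation tests of other denominators, of ratios and of map position were added after values were seen.

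Same-numbered libraries were checked for pairing by the correlation of their deviations from group means over classes. It was -0.13, -0.05 and 0.35 for vehicle with FL-NfL, 0.16, 0.41 and 0.19 for vehicle with CC-NfL, and 0.33, 0.54 and 0.20 for FL-NfL with CC-NfL. Different-numbered libraries ran from -0.69 (vehicle 3 with FL-NfL 1) to 0.67 (vehicle 3 with FL-NfL 2), both across batches. Same-numbered libraries also share a batch, which these deviations keep. Different-numbered libraries within b1 gave 0.30 and 0.14 for vehicle with FL-NfL, above the same-numbered ones. They gave -0.05 and -0.17 for vehicle with CC-NfL, and -0.41 and -0.36 for FL-NfL with CC-NfL, below the same-numbered ones. In b2, vehicle 4 gave 0.12 with FL-NfL 3 and 0.28 with CC-NfL 3. Pairing was not tested. Each library came from a different mouse, and the main tests were not paired. Fits with the replicate number as a block are given beside them.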

Additional observations from a re-analysis of the deposited data

How the results depend on the processing

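The direction and the missing call of the BMEC share held in all 23 log-scale alternatives for CC-NfL against vehicle (-1.40 to -0.77, adjusted p 0.0516 to 0.937), FL-NfL against CC-NfL (0.62 to 1.43) and both proteins against vehicle. The FL-NfL estimate, near 0, turned negative with all barcodes (-0.18) or without microglia (-0.018) or choroid and ependymal cells (-0.043) as denominator, in the quasi-binomial model (-0.028), as a centred log ratio (-0.055) and without the libraries numbered 1 (-0.19), and ran from -0.15 to 0.13 with 1 library left out. Among vascular cells, the estimates without the libraries numbered 1 were -0.19 for FL-NfL and -0.42 for both proteins, the latter being -0.030 in the quasi-binomial model. With 1 library left out they ran from -0.016 to 1.18 and from -0.22 to 0.33.

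With the replicate number as a block, the BMEC share estimates were -0.039 for FL-NfL, -1.12 for CC-NfL, 1.08 for FL-NfL against CC-NfL and -0.58 for both, and no share call changed. The 2 ratios passed for both proteins became 0 with the block, in b1 alone and without the libraries numbered 1, and 0 to 2 with 1 library left out. The count was also 0 in exact permutation, where passing depended on how many pairs reached the smallest p. For FL-NfL the count was 0 to 2 with 1 library left out.

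Between the proteins, the ratios to macrophages and other immune cells were -0.24 and -0.25 in b1 alone and ran from -0.33 to 0.29 and -0.38 to 0.42 with 1 library left out. BMEC per pericyte for both proteins was -0.37 without the libraries numbered 1 and ran from -0.22 to 0.26. With 1 library left out, r ran from -0.13 to 0.67 for pericytes, -0.12 to 0.39 for VSMC, -0.27 to 0.30 for VLMC, -0.098 to 0.17 for microglia and -0.23 to 0.39 for macrophages. The cause of these changes was not tested. CC-NfL 1 held 22 BMEC, so its share is known to within 0.319% to 0.769% from counting alone.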
